A study of Mus musculus with 9 samples.

Results

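The 10 genes described here encode the thioredoxin and peroxiredoxin cycle (Txn1, Txnrd1, Srxn1, Prdx1, Prdx2, Prdx5 and Prdx6), the superoxide dismutases of the cytosol and the mitochondrion (Sod1 and Sod2) and catalase (Cat). They were picked by gene symbol, with earlier results of these data known, so shares over all genes are not an unbiased contrast. All 10 were found among the 56980 Ensembl identifiers of the deposited expression table. All 10 also passed the filter on low values, with at least 1 TPM in at least 3 libraries, as did 12904 genes of the table. TPM is a transcript level divided by transcript length and scaled to the same total in every library, so levels of different genes can be set side by side. RNA came from MH-S cells, a line of mouse alveolar macrophages transformed with SV40, in 3 groups of 3 libraries. The control group received neither agent, the second group received copper oxide nanoparticles (CuO NPs) at 20 µg/ml, and the third received the same dose of CuO NPs together with 10 µM TTM, all for 24 h. The labels leave TTM unexplained, and in work on copper the abbreviation usually means tetrathiomolybdate, which chelates copper. TTM was never given without the nanoparticles. Separate cultures are not mentioned for the replicates, so every p-value here reflects the spread between libraries, which may be technical.

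Superoxide dismutases turn superoxide into hydrogen peroxide, and catalase and the peroxiredoxins remove that peroxide. Peroxiredoxins are reduced by thioredoxin, thioredoxin is reduced by the selenoprotein thioredoxin reductase with NADPH, and sulfiredoxin, the product of Srxn1, rescues peroxiredoxins that have been oxidised too far. Sod1 carries copper and zinc and works mainly in the cytosol, Sod2 carries manganese and works in the mitochondrial matrix, and catalase is a heme enzyme of the peroxisome. Several of these genes are known targets of the transcription factor NRF2, which binds antioxidant response elements, and Sod2 is a known target of NF-kB. In macrophages the phagocyte NADPH oxidase is a source of superoxide, though not the only source.

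After CuO NPs, the mRNA of the thioredoxin cycle and of Prdx1, Srxn1, Sod1 and Cat rose, while Prdx2 and Sod2 did not pass the test. Prdx5 and Prdx6 fell slightly on the deposited scale, calls that were lost under 3 of 4 other scalings for Prdx5 and under all 4 for Prdx6, and Prdx2 was called higher under all 4. With TTM beside the nanoparticles, the 6 genes that rose were lower again, and Sod2 fell as well. The level reached with TTM differed from gene to gene. Relative to control, Srxn1 and Sod2 were lower, Cat, Sod1 and Prdx2 were higher, and Txn1 and Txnrd1 did not pass the test. Prdx1, Prdx5 and Prdx6 were also called slightly lower, calls that some alternative settings did not keep.

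Promoter sequences of 4 genes that rose are shown first, chosen because they held a match to a motif searched, while Cat and Txn1 also rose and their windows held none. RefSeq promoter windows of 300 bases, 250 before and 50 after the annotated start, matched 9 of the 10 genes with 11 windows, 3 of them for Txnrd1, and there was no entry for Prdx6. The windows are of the build GRCm38.p6, and each run below ends before the first annotated exon base. They are written 5′ to 3′ on the strand of the gene, and capitals mark matches to the motifs searched, on either strand.
Srxn1, chr2:152105274-152105515, plus strand: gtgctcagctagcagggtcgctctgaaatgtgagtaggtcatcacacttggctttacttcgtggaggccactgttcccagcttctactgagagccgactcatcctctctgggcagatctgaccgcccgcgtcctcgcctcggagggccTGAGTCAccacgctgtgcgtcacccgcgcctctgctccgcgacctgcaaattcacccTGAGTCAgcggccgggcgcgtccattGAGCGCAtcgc
Prdx1, chr4:116685349-116685543, plus strand: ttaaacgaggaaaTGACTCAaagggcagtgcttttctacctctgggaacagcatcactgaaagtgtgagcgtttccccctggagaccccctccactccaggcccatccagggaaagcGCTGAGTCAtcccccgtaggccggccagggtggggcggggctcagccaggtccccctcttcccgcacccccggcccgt
Sod1, chr16:90220512-90220753, plus strand: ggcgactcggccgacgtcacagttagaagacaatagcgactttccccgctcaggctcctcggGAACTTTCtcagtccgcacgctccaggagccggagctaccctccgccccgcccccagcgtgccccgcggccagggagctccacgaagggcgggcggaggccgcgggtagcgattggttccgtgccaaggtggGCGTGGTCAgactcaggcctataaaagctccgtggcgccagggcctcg
Txnrd1, chr10:82858956-82859178, plus strand: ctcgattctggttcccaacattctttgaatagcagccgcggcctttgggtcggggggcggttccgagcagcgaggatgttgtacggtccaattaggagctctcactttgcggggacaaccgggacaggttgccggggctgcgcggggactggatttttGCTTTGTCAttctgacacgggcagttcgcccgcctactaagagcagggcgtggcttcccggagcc

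The motifs searched on both strands were the antioxidant response element as TGACNNNGC, the AP-1 site as TGACTCA, the metal response element as TGCGCNC, the heat shock element as GAANNTTC and a consensus form of the NF-kB site. The antioxidant response element matched 4 of the 11 windows, those of Prdx1, Sod1 and Srxn1 and the second window of Txnrd1, and it matched 12.4% of all 32851 windows of this length. In Prdx1 the match lay 133 to 125 bases before the start and held an AP-1 match within it at 131 to 125, and a further AP-1 match lay at 237 to 231. In Srxn1 the AP-1 site matched at 102 to 96 and at 45 to 39 bases before the start, and the match to the antioxidant response element came after the start and is not printed. The AP-1 site was found in 2 of the 11 windows and in 5.2% of all windows. Sod1 held a heat shock element match 188 to 181 bases before the start and an antioxidant response element match 56 to 48 bases before it, and Txnrd1 held its match 92 to 84 bases before the start. The heat shock element matched 1 of the 11 windows and 7.86% of all windows, and the metal response element, found in Srxn1 19 to 13 bases before the start, matched 1 of the 11 and 15.4% of all. The NF-kB letters occurred in none of the 11 windows and in 1.2% of all. The windows of Cat, Txn1, Prdx2, Prdx5 and Sod2 and the other 2 windows of Txnrd1 held no match to any motif searched. These are matches of letters in short windows, and no measurement of factor binding was part of the data.

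Before the values, the cells were checked against their label. Of 8 macrophage markers 7 passed the filter, and their summed level was 1876 to 1902 TPM in control libraries, 1145 to 1153 TPM with CuO NPs and 1379 to 1483 TPM with CuO NPs + TTM. Of 6 markers of alveolar macrophages 4 passed, Marco, Chil3, Fabp4 and Itgax, and their list summed to 1210 to 1230, 327.9 to 357.3 and 544.1 to 566.1 TPM, while Siglecf and Pparg, which define these cells in the lung, stayed at or below 0.22 TPM in every library. Cd68 was the largest part of the first sum and Marco of the second, and single markers differed from the sums. Csf1r had 158.8 to 189.55, 77.01 to 97.75 and 39.44 to 51.65 TPM in the 3 groups, and Chil3 340.65 to 375.33, 108.86 to 110.89 and 69.2 to 80.47 TPM. Both were thus lowest with TTM, where the other markers of these lists that passed had higher means than with CuO NPs alone. For Lyz2 that difference was small, at 173.98 to 181.4 and 178.35 to 193.58 TPM. Epithelial markers summed to at most 0.15 TPM, with Epcam and Sftpc at 0. Granulocyte markers, 4 of 5 of them tested and most of the sum from S100a8, made up 385.2 to 401.9 TPM in controls, 200.2 to 220.8 TPM with CuO NPs and 64.72 to 72.34 TPM with CuO NPs + TTM. Ly6g, a more specific granulocyte marker, went another way, at 0.08 to 0.5, 2.37 to 3.06 and 0.08 to 0.21 TPM. Fibroblast markers summed to at most 16.0 TPM, endothelial markers to at most 14.34 TPM and lymphocyte markers to 0.54 to 0.79, 0.19 to 1.19 and 1.67 to 3.36 TPM in the 3 groups, with Cd3e at 1.6 to 2.27 TPM in the last. The macrophage, alveolar macrophage, granulocyte, fibroblast and lymphocyte lists moved with the groups, and their part in the values below was not tested. In bulk RNA, fewer cells of a type and less RNA per cell cannot be told apart. Between 19710 and 20863 genes had a value above 0 per library, and Pearson correlations of log2(TPM + 1) across genes were 0.981 to 0.986 within groups and 0.943 to 0.962 between groups, genes not being independent replicates.

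In control cells the order of levels ran from Prdx1 at 2451 ± 12.9 TPM (SD, n = 3, as for all means below) through Sod2, Sod1, Prdx5, Txn1, Txnrd1, Srxn1, Prdx6 and Prdx2 down to Cat at 54.96 ± 4.80 TPM. Library ranges overlapped for 2 neighbouring pairs, Sod1 with Prdx5 and Prdx6 with Prdx2. Prdx1 alone made up 48.9 ± 0.498% of the summed level of the 10 genes in control cells, 60.33 ± 0.483% after CuO NPs and 49.38 ± 2.14% with CuO NPs + TTM. With CuO NPs Srxn1 moved up to stand between Txn1 and Txnrd1, with ranges that overlapped both, and Cat moved from last to eighth, above Prdx2 and Prdx6. With CuO NPs + TTM, Prdx6 was last, and the ranges of Srxn1 and Cat and of Cat and Prdx6 overlapped. Sod2 and Sod1 overlapped in both exposed groups.

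**Figure D1:**
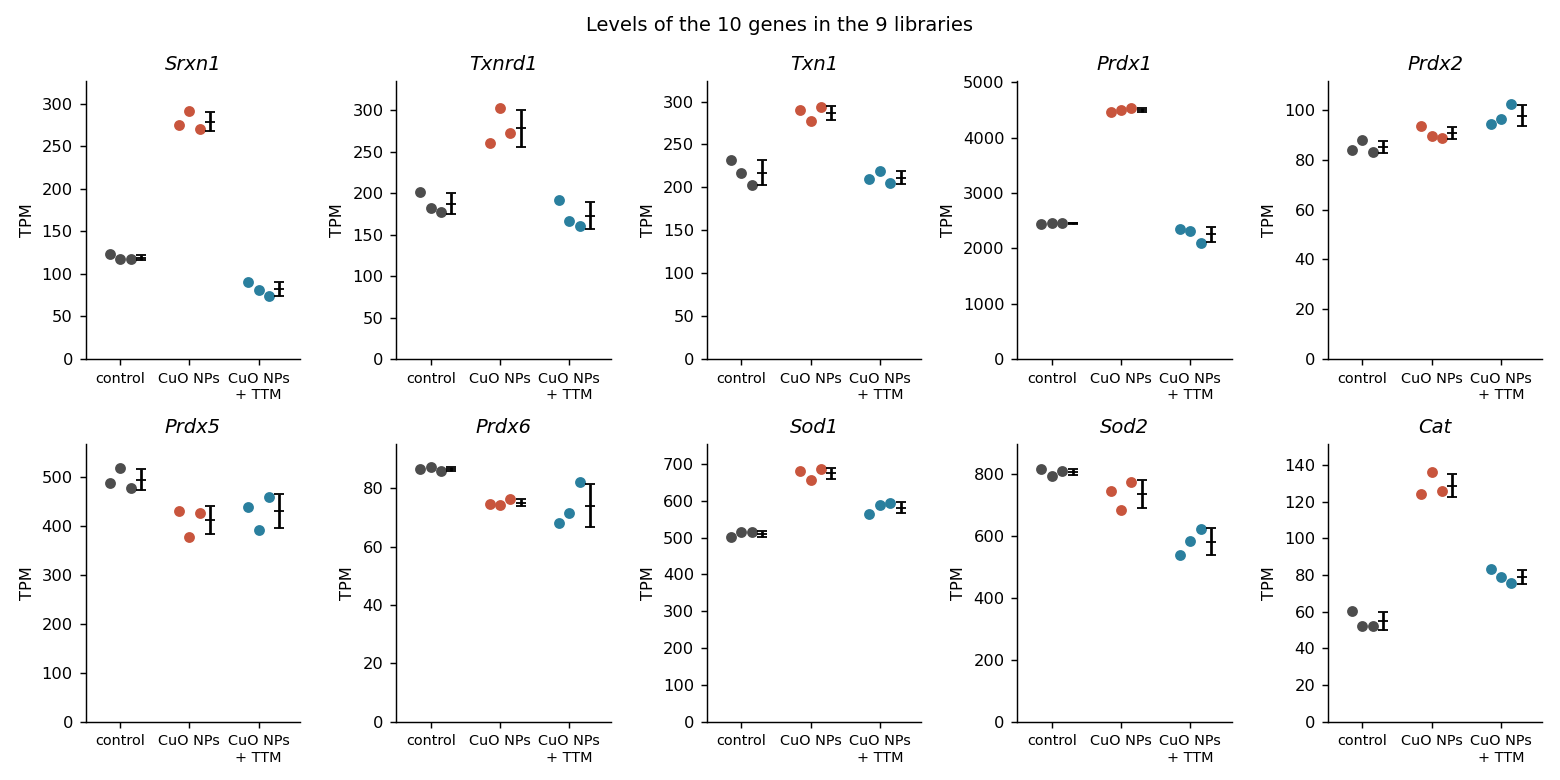
Levels in TPM of the 10 genes in the 9 libraries, 1 dot per library, with the mean ± SD of each group to its right and every axis starting at 0. Srxn1, Prdx1 and Cat have their 3 CuO NPs libraries well above all other libraries, whereas Prdx2, Prdx5 and Prdx6 move little.

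The first comparison asked which of the 10 mRNAs differed after the nanoparticles. By limma on log2(TPM + 1) with Benjamini-Hochberg adjustment over all 12904 genes, 8 of the 10 genes were called, where 41.9% of all genes were. Of these, 6 were called higher, beside 11.8% of all genes, and 2 lower, beside 30.1% of all genes. The median log2 fold change of the 10 genes was 0.40, beside -0.12 over all genes tested. Libraries of the groups did not overlap for any of the 10 genes, which held for 53.0% of all genes. The TPM scale puts most genes slightly below control. With median-of-ratios scaling the split over all genes became 2571 higher and 2561 lower, against 1518 and 3890 on the deposited scale, and 3134 and 2071 with each library centred on its median gene. With those scalings, and with quantile normalization, the 6 genes called higher kept their call and no member was called lower.

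Thioredoxin (Txn1, ENSMUSG00000028367) is the small protein that hands electrons to peroxiredoxins. Its level was 232.0, 216 and 203 TPM in the control libraries, 289.7, 277 and 294 TPM with CuO NPs, and 209.6, 219 and 205 TPM with CuO NPs + TTM. The 3 CuO NPs libraries were above all others, while the controls and the CuO NPs + TTM libraries overlapped. Txn1 rose 1.32-fold, by 0.40 on the log2 scale (standard error 0.0544, limma adjusted p = 0.00032). Thioredoxin reductase (Txnrd1, ENSMUSG00000020250), which recharges thioredoxin with NADPH, had 201.5, 182 and 178 TPM in control, 260.0, 303 and 272 TPM with CuO NPs, and 191, 166 and 161 TPM with CuO NPs + TTM. Its CuO NPs libraries again lay above all others. Txnrd1 rose by 0.57 on the log2 scale (adjusted p = 0.00044 by limma), and the interval of 0.39 to 0.75 overlapped that of Txn1, 0.28 to 0.53. Annotated on the opposite strand across Txnrd1 are 2 low genes, Gm38560 and Gm47073, at no more than 1.78 TPM. Eid3 overlaps Txnrd1 on the same strand, at 3.37 to 6.23 TPM.

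Sulfiredoxin (Srxn1, ENSMUSG00000032802) showed the widest spread between groups of the cycle. The control libraries held 123, 117 and 117 TPM, the CuO NPs libraries 275, 292 and 271 TPM, and the CuO NPs + TTM libraries 90.3, 81.3 and 74.5 TPM. No library of any group reached into the range of another group, and the order was CuO NPs, control, CuO NPs + TTM. Srxn1 rose 2.34-fold with CuO NPs, a log2 fold change of 1.22 (95% interval 1.07 to 1.37, limma adjusted p = 1.24e-06). All 22 alternative settings kept that call.

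Prdx1 (ENSMUSG00000028691), the main cytosolic peroxiredoxin, was the most abundant of the 10 mRNAs in every library. It stood at 2438, 2451 and 2464 TPM in control, 4467, 4501 and 4532 TPM with CuO NPs, and 2348, 2319 and 2099 TPM with CuO NPs + TTM. The CuO NPs libraries formed a tight group far above the other 6. Prdx1 rose 1.84-fold, or by 0.88 on the log2 scale (standard error 0.0458, adjusted p = 9.34e-07 by limma). Values of the other peroxiredoxins stayed closer to control. Prdx2 (ENSMUSG00000005161), a second cytosolic form, had 84.1, 87.9 and 83.3 TPM in control and 93.5, 89.7 and 88.9 TPM with CuO NPs, which did not overlap. Its log2 fold change of 0.09 (limma adjusted p = 0.158) did not pass on the deposited scale. It was called higher under the other 4 scalings, with log2 fold changes up to 0.27. Prdx2 overlaps Rnaseh2a and Junb on the opposite strand, at 43.92 to 85.98 and 98.99 to 156.07 TPM, so its value is uncertain if reads were counted without strand.

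Prdx5 (ENSMUSG00000024953), an atypical peroxiredoxin of mitochondria, peroxisomes and cytosol, had 487.7, 518 and 477 TPM in control and 429, 378 and 427 TPM with CuO NPs. All control libraries were above all CuO NPs libraries. Prdx5 fell by 0.27 on the log2 scale (limma adjusted p = 0.0137), and the call was lost with median-of-ratios scaling, median gene centring and quantile normalization. It was also lost without control replicate 2, where the log2 fold change was -0.23 and the adjusted p 0.0511. Prdx5 overlaps Trmt112 on the opposite strand, at 100.14 to 130.78 TPM, and is uncertain in the same way. Prdx6 (ENSMUSG00000026701), which uses glutathione rather than thioredoxin and also acts as a phospholipase, had 86.5, 87.2 and 86.1 TPM in control and 74.5, 74.4 and 76.4 TPM with CuO NPs. Both groups were tight and apart, and Prdx6 fell by 0.20 on the log2 scale (limma adjusted p = 0.031). Only 10 of 22 alternatives kept this call, and it was lost when any control or CuO NPs library was left out, with adjusted p between 0.0586 and 0.0788. Relative to the median gene, the difference was -0.14 for Prdx5 and -0.08 for Prdx6.

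The peroxiredoxin mRNA pool was made up differently by group. The 6 peroxiredoxins of the table, Prdx3 and Prdx4 included, summed to 3342 ± 31.1 TPM in control, 5328 ± 35.3 TPM with CuO NPs and 3116 ± 106 TPM with CuO NPs + TTM. Prdx1 supplied 73.33 ± 0.721%, 84.45 ± 0.352% and 72.34 ± 2.11% of these sums. Within each library the ratio of Prdx5 to Prdx1 was 0.2001, 0.212 and 0.193 in control and 0.0961, 0.0840 and 0.0941 with CuO NPs, a log2 difference of -1.14. Prdx2 and Prdx6 differed from Prdx1 in the same direction, by -0.78 and -1.08. A ratio within a library does not change when a library is scaled by 1 factor, though quantile normalization, which maps values by rank, could change it and was not applied to ratios. Each of these ratios separated the groups fully, with an exact two-sided permutation p of 0.1, the smallest that 3 against 3 libraries allow, and 0.131 after adjustment over 21 tests. In that family of 7 ratios and 3 comparisons, 16 of the 21 tests had groups that did not overlap. Most of the 7 ratios have Prdx1 as denominator, so these tests are not separate results. No share over ratios of other genes was computed to set beside that count.

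**Figure D2:**
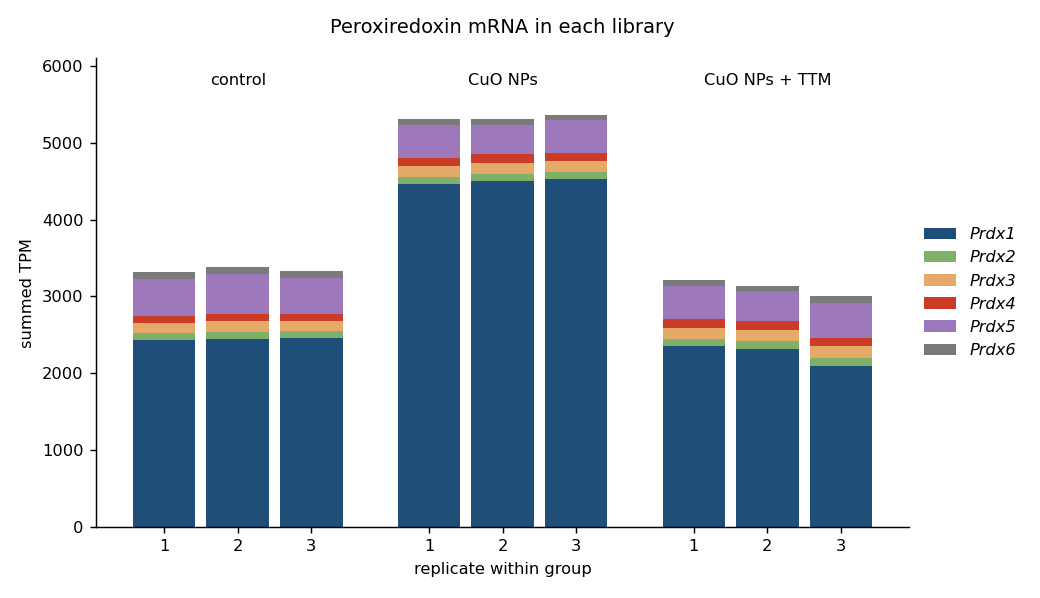
Stacked levels in TPM of the 6 peroxiredoxin mRNAs in each of the 9 libraries, with the replicate number within a group on the horizontal axis. The bars of the CuO NPs libraries are taller almost wholly by the Prdx1 part, which is 84.45% of the sum there and 73.33% in control.

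The superoxide dismutases parted. Sod1 (ENSMUSG00000022982), the copper and zinc enzyme, had 501, 514 and 515 TPM in control, 679, 657 and 686 TPM with CuO NPs, and 563, 587 and 593 TPM with CuO NPs + TTM. The 3 groups did not overlap at all, with CuO NPs + TTM in between. Sod1 rose 1.32-fold with CuO NPs, or by 0.40 on the log2 scale (standard error 0.0369, adjusted p = 2.9e-05 by limma). Sod1 overlaps Scaf4 on the opposite strand, at 31.13 to 50.13 TPM. Sod2 (ENSMUSG00000006818), the manganese enzyme, had 816.9, 795 and 809.7 TPM in control, 747, 685 and 775 TPM with CuO NPs, and 539, 585 and 624 TPM with CuO NPs + TTM. Its groups did not overlap either, but the order was control, CuO NPs, CuO NPs + TTM. For Sod2 the log2 fold change of -0.14 with CuO NPs did not pass (95% interval -0.27 to 0.0006, limma adjusted p = 0.101), and it turned to 0.0047 with median-of-ratios scaling and to 0.045 with median gene centring.

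The ratio of Sod2 to Sod1, which scaling by 1 factor per library leaves as it is, was 1.63, 1.55 and 1.57 in control, 1.10, 1.04 and 1.13 with CuO NPs, and 0.957, 0.997 and 1.05 with CuO NPs + TTM. Controls were apart from both exposed groups, which overlapped each other. The log2 difference from control was -0.54 with CuO NPs and -0.66 with CuO NPs + TTM (exact permutation p = 0.1 each, adjusted 0.131), and -0.12 between the exposed groups (exact permutation p = 0.2). The summed mRNA of both dismutases was 1317 ± 7.79, 1409 ± 61.3 and 1164 ± 57.6 TPM in the same order of groups, and Sod1 was 38.71 ± 0.617%, 47.85 ± 1.01% and 49.98 ± 1.19% of it.

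Catalase (Cat, ENSMUSG00000027187) was the least abundant of the 10 in control, at 60.5, 52.2 and 52.2 TPM. It reached 124, 136 and 126 TPM with CuO NPs and 83.0, 78.7 and 75.4 TPM with CuO NPs + TTM. The 3 groups were fully apart, and CuO NPs + TTM lay between the other two. Cat rose 2.34-fold with CuO NPs, a log2 fold change of 1.22 (95% interval 1.06 to 1.37, limma adjusted p = 1.46e-06), and all 22 alternatives kept the call. The change was of the same size as that of Srxn1, whose interval was 1.07 to 1.37.

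**Figure D3:**
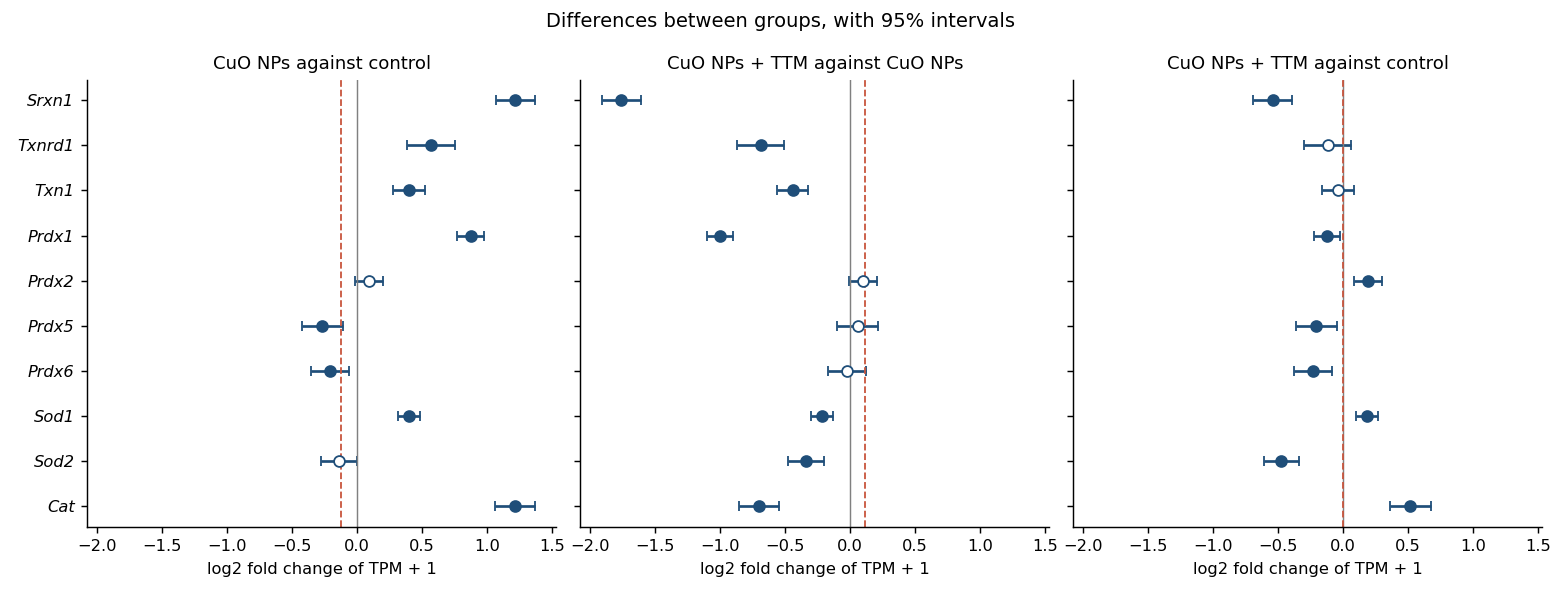
Log2 fold changes of TPM + 1 with 95% intervals for the 10 genes in the 3 comparisons, filled where called by limma and open where not, with a dashed line at the median of all 12904 genes tested. Srxn1 and Cat share the same difference on the left, 1.22, and part in the other panels, where Srxn1 ends at -0.54 and Cat at 0.52 relative to control.

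The second comparison asked what differed when TTM was given beside the nanoparticles, and it shares the CuO NPs libraries with the first. Limma called 7 of the 10 genes, where 53.1% of all genes were called. All 7 were lower, beside 18.5% of all genes, and 0 were higher, beside 34.6% of all genes. The 3 that did not pass were Prdx2, Prdx5 and Prdx6. The median log2 fold change of the 10 was -0.39, beside 0.12 over all genes, and the groups did not overlap for 8 of the 10 and for 59.4% of all genes. Over all genes the split was 4469 higher and 2384 lower, and it became 3402 and 3511 with median-of-ratios scaling, 2741 and 4222 with median gene centring and 3455 and 3507 with quantile normalization. Each of the 7 calls was kept under all 22 alternatives. At an unadjusted p under 0.05 no member was higher either.

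Srxn1 fell most with TTM, by 1.76 on the log2 scale (95% interval -1.91 to -1.61, limma adjusted p = 5.07e-07), a 3.4-fold lower level. Prdx1 fell by 1.00 (limma adjusted p = 1.1e-06), a 1.99-fold lower level. Cat fell by 0.70 (SE 0.0693, limma adjusted p = 4.01e-05), Txnrd1 by 0.69 (SE 0.0812, adjusted p = 0.000109) and Txn1 by 0.44 (SE 0.0544, adjusted p = 0.000141). Cat and Srxn1 had equal differences with CuO NPs alone, but their intervals in this step, -0.85 to -0.54 and -1.91 to -1.61, did not meet. Sod1 fell by 0.21 (SE 0.0369, limma adjusted p = 0.001) and Sod2 by 0.34 (SE 0.0609, adjusted p = 0.00132).

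Prdx2, Prdx5 and Prdx6 differed little between the exposed groups. Prdx2 had 94.3, 96.4 and 102 TPM with CuO NPs + TTM, above all CuO NPs libraries, with a log2 fold change of 0.11 (95% interval -0.0027 to 0.21, limma adjusted p = 0.0919). Prdx5 had 439, 391 and 458 TPM, which overlapped the CuO NPs libraries, with 0.06 (95% interval -0.10 to 0.22, adjusted p = 0.491). Prdx6 had 68.1, 71.7 and 82.3 TPM, on both sides of the CuO NPs libraries, with -0.02 (95% interval -0.17 to 0.12, adjusted p = 0.771). These directions are not firm. Median-of-ratios scaling gave -0.02 for Prdx2 and -0.07 for Prdx5, and leaving out CuO NPs + TTM replicate 1 gave 0.03 for Prdx6. Median gene centring gave -0.21 for Prdx6 and called it lower (limma adjusted p = 0.0442), so that 8 members were called lower there.

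The third comparison set the cells that received both agents beside untreated cells. Limma called 8 of the 10 genes, where 55.5% of all genes were called. Of these, 3 were higher, beside 27.3% of all genes, and 5 lower, beside 28.2% of all genes. The groups did not overlap for 8 of the 10 and for 63.1% of all genes, and the median log2 fold change was -0.12, beside 0.0016 over all genes. The 3 higher and 5 lower members are described gene by gene.

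Cat was 1.44-fold above control (log2 fold change 0.52, SE 0.0693, limma adjusted p = 0.000177). Prdx2 was higher by 0.20 (adjusted p = 0.00646) and Sod1 by 0.19 (adjusted p = 0.00188). These 3 calls held under all 22 alternatives. On the other side, Srxn1 stood below control by a log2 fold change of -0.54 (95% interval -0.69 to -0.39, limma adjusted p = 0.000116), and Sod2 by -0.47 (95% interval -0.61 to -0.34, adjusted p = 0.000143), a 1.39-fold lower level. Both of those calls also held under all 22 alternatives.

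The remaining values were small. Prdx6 was below control by -0.23 on the log2 scale (limma adjusted p = 0.014), which was lost only with quantile normalization, at an adjusted p of 0.0791. Prdx5 was below by -0.20 (adjusted p = 0.0325), a call that 14 of 22 alternatives kept. It was lost with no filter, with no trend, with median-of-ratios scaling, median gene centring and quantile normalization (adjusted p up to 0.24), and without control replicate 1 (adjusted p = 0.0627), without control replicate 2 (0.107) or without CuO NPs + TTM replicate 2 (0.115). Prdx1 was below by -0.12 (adjusted p = 0.0463), a call that 9 of 22 alternatives kept. Leaving out any control or any CuO NPs library ended it, with adjusted p from 0.0646 to 0.102, and without CuO NPs + TTM replicate 3 the log2 fold change was -0.07 (adjusted p = 0.107). Txnrd1 and Txn1 did not pass, at -0.12 (95% interval -0.30 to 0.07, adjusted p = 0.25) and -0.04 (95% interval -0.16 to 0.09, adjusted p = 0.592). Quantile normalization turned both, to 0.07 and 0.13, and Txn1 also turned to 0.01 without control replicate 1.

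Set against Prdx1 within each library, Srxn1 and Cat moved apart with TTM. The ratio of Srxn1 to Prdx1 was 0.0487 ± 0.00167 in control, 0.0620 ± 0.00258 with CuO NPs and 0.0363 ± 0.00185 with CuO NPs + TTM, and no group overlapped another. The ratio of Cat to Prdx1 was 0.0224 ± 0.00207, 0.0286 ± 0.00141 and 0.0351 ± 0.00102 in the same order, again without overlap. Both ratios were higher than control by 0.35 on the log2 scale with CuO NPs. With TTM the Srxn1 ratio was lower than with CuO NPs alone by a log2 difference of -0.77, while the Cat ratio was higher by 0.30 (exact permutation p = 0.1 for each, the smallest possible). The ratio of Txnrd1 to Txn1 differed less, by 0.17 with CuO NPs (exact permutation p = 0.1) and by -0.25 between the exposed groups, which overlapped (exact permutation p = 0.2).

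**Figure D4:**
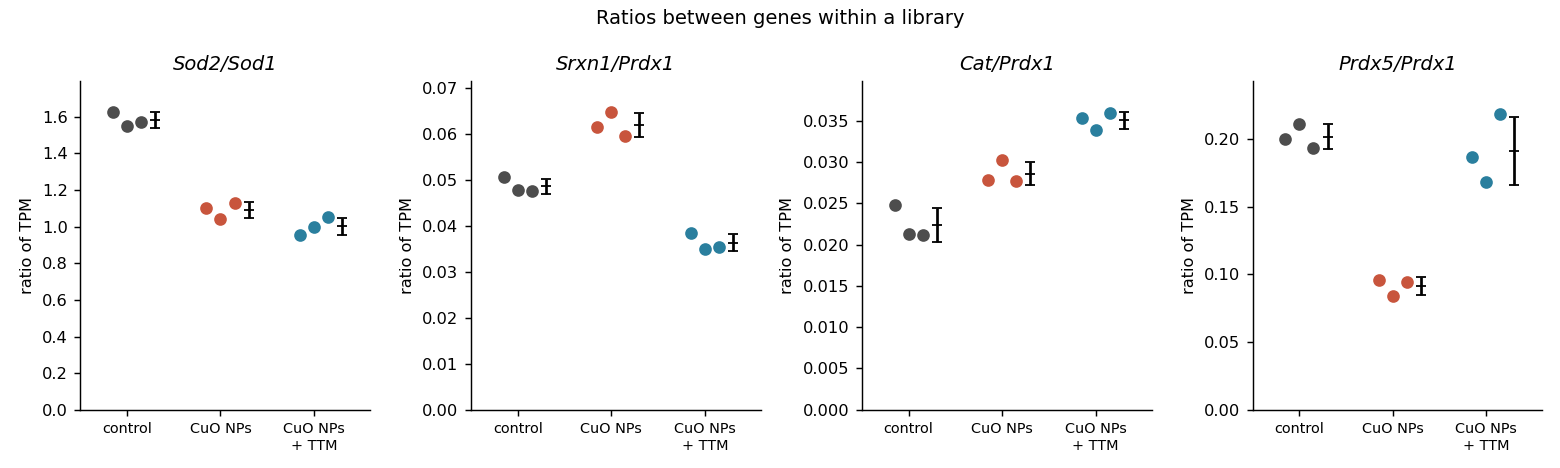
Ratios of TPM within each library for Sod2 to Sod1, Srxn1 to Prdx1, Cat to Prdx1 and Prdx5 to Prdx1, with 1 dot per library, the mean ± SD of each group to its right and axes from 0. Sod2 to Sod1 is 1.58 in control and near 1 in both exposed groups, and Cat to Prdx1 goes up in each step from control to CuO NPs to CuO NPs + TTM.

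Several of the 10 proteins have a counterpart made for the mitochondrion, and these counterparts were taken for this comparison after their values were seen. Txn2, the mitochondrial thioredoxin, had 234.1 ± 1.17, 242.5 ± 8.40 and 275.7 ± 15.2 TPM in control, CuO NPs and CuO NPs + TTM. Prdx3, the mitochondrial peroxiredoxin, had 137.4 ± 0.365, 139.5 ± 5.07 and 149.6 ± 3.05 TPM. Txnrd2, the mitochondrial reductase, had 13.37 ± 0.335, 14.76 ± 0.927 and 16.27 ± 1.75 TPM. None of these passed with CuO NPs against control, at log2 fold changes of 0.05 for Txn2, 0.02 for Prdx3 and 0.13 for Txnrd2, where Txn1, Prdx1 and Txnrd1 had 0.40, 0.88 and 0.57. Median-of-ratios scaling, median gene centring and quantile normalization called all 3 of them higher, and Prdx3 turned to -0.01 without CuO NPs replicate 2. Against control, CuO NPs + TTM libraries were higher for Txn2 by 0.23 (limma adjusted p = 0.00243), for Txnrd2 by 0.26 (adjusted p = 0.0289) and for Prdx3 by 0.12 (adjusted p = 0.0289). Txn2 kept that call in all 22 alternatives, Txnrd2 in 16 and Prdx3 in 14. For Txnrd2 and Prdx3 it was lost without any of the control libraries or without CuO NPs + TTM replicates 1 or 2, and over all alternatives the adjusted p reached 0.0961 and 0.0803.

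**Figure D5:**
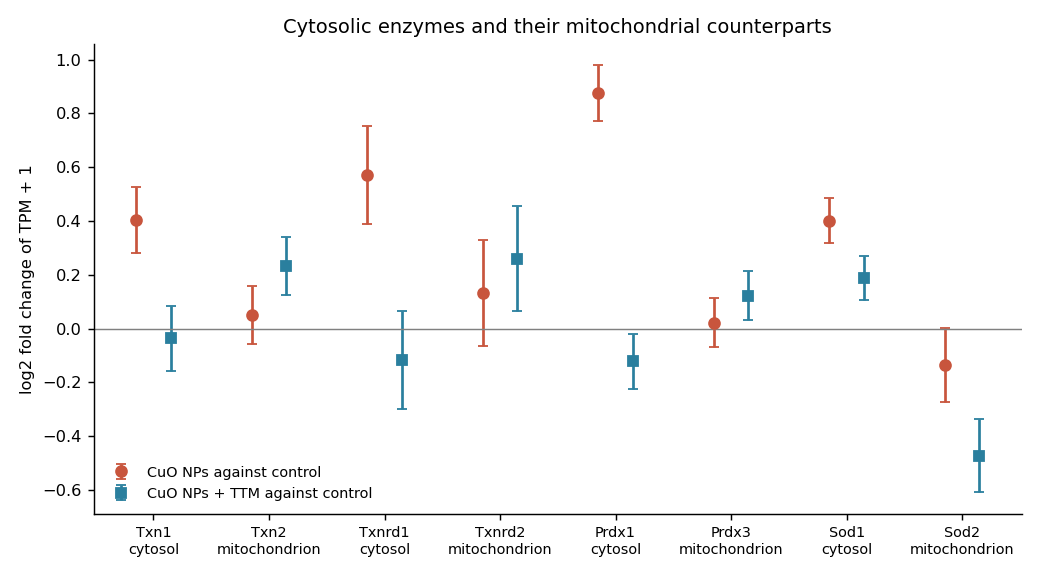
Log2 fold changes of TPM + 1 against control with 95% intervals for 4 pairs of cytosolic and mitochondrial enzymes, circles for CuO NPs and squares for CuO NPs + TTM. The cytosolic genes have the higher circles, with Prdx1 at 0.88, while for Txn2, Txnrd2 and Prdx3 the squares lie above the circles.

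Among 8 other thioredoxins and reductases, 2 rose, 2 fell and 4 did not pass with CuO NPs, with a median log2 fold change of 0.09, beside 11.8% higher and 30.1% lower and a median of -0.12 over all genes. Txndc12, a thioredoxin fold protein of the endoplasmic reticulum, rose from 111.6 ± 2.53 to 137.7 ± 3.54 TPM (0.30, limma adjusted p = 0.000336) and had 164.7 ± 3.70 TPM with TTM, higher than with CuO NPs alone (0.26, adjusted p = 0.000616), a call lost with median gene centring (0.07, adjusted p = 0.223). Txnip, whose protein binds and inhibits thioredoxin, fell from 76.06 ± 4.32 to 56.51 ± 2.20 TPM (-0.42, adjusted p = 0.00211) and stood at 61.96 ± 6.44 TPM with TTM. The calls of both genes with CuO NPs against control held in all 22 alternatives. Txndc17 fell by 0.17 (adjusted p = 0.0488), which 5 of 22 alternatives kept, with adjusted p from 0.0385 to 0.904, and median gene centring turned to 0.01. With median-of-ratios scaling the count became 5 higher and 1 lower.

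Of 7 further peroxiredoxins, dismutases and partners 6 were tested, and Sod3, the secreted dismutase, was listed at 0 in all libraries. With CuO NPs 2 rose and 1 fell, beside 11.8% and 30.1% of all genes, at a median of 0.13, and 4 rose and 1 fell with median-of-ratios scaling, median gene centring or quantile normalization. Sesn2, a sestrin induced by stress, rose from 8.603 ± 0.313 to 31.01 ± 2.22 TPM (1.74, limma adjusted p = 1.5e-07) and was lower with TTM at 21.54 ± 0.556 TPM (-0.50, adjusted p = 0.000254), still above control. Sesn1 fell from 6.777 ± 0.681 to 3.967 ± 0.448 TPM (-0.65, adjusted p = 0.00144) and was higher again with TTM at 6.563 ± 0.643 TPM (0.61, adjusted p = 0.00146). Prdx4, the peroxiredoxin of the endoplasmic reticulum, rose from 88.32 ± 7.28 to 111.8 ± 5.35 TPM (0.34, adjusted p = 0.00232) and stayed at 110.1 ± 3.30 TPM with TTM. Between the exposed groups Prdx4 stood at -0.02 (95% interval -0.16 to 0.12), where Prdx1 fell by 1.00. Ccs, the chaperone that loads copper into Sod1, is given although its value was seen first, at 22.37 ± 1.34, 26.60 ± 2.96 and 29.36 ± 2.46 TPM. Its difference with CuO NPs did not pass (0.24, adjusted p = 0.0658) but passed under the other 4 scalings and without CuO NPs replicate 2, and that of CuO NPs + TTM against control did (0.38, adjusted p = 0.0065).

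Of 9 glutaredoxins and glutathione peroxidases 6 were tested, and with CuO NPs 0 were called higher and 3 lower, at a median of -0.21. Over all genes 11.8% were called higher and 30.1% lower in that comparison, at a median of -0.12. Glrx, cytosolic glutaredoxin, fell from 210.1 ± 6.13 to 69.83 ± 2.95 TPM (-1.58, limma adjusted p = 4.71e-08) and stood at 79.46 ± 3.6 TPM with TTM. Gpx1, the main cytosolic glutathione peroxidase, fell from 1026 ± 38.6 to 683.7 ± 47.9 TPM (-0.59, adjusted p = 3.94e-05) and stood at 700.1 ± 28.1 TPM with TTM. For both genes the calls against control held in all 22 alternatives in each exposed group. Glrx3 fell by 0.21 (adjusted p = 0.0044), which 3 other scalings did not keep. By limma no gene of this list was higher even at an unadjusted p under 0.05, though median gene centring and quantile normalization each called 1, Gpx4. Gpx4, which acts on lipid peroxides and is named after its value was seen, had 485.5 ± 25.4, 523.6 ± 23.0 and 668.2 ± 55.2 TPM in the 3 groups. With TTM it was called higher than control (0.46, limma adjusted p = 0.000274) and higher than with CuO NPs alone (0.35, adjusted p = 0.00162), the latter lost with median-of-ratios scaling and median gene centring. Of 4 methionine sulfoxide reductases 3 were tested and Msra, which repairs oxidised methionine, fell by 0.51 (adjusted p = 0.00401), a call lost with median gene centring and quantile normalization.

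The phagocyte NADPH oxidase makes superoxide, the molecule on which dismutases act. Of its 6 genes 4 were called lower with CuO NPs, beside 30.1% of all genes. With median-of-ratios scaling 2 were called lower, and Ncf4 and Rac2 lost their call. Cyba did not pass on the deposited scale (0.12, limma adjusted p = 0.123) but was called higher under all 4 other scalings. Cybb, the catalytic subunit, fell from 50.30 ± 3.10 to 34.13 ± 1.64 TPM (-0.55, limma adjusted p = 9.33e-05) and stood at 35.43 ± 0.777 TPM with TTM. Ncf1, a cytosolic subunit, fell from 113.0 ± 2.50 to 77.75 ± 1.18 TPM (-0.53, adjusted p = 1.56e-05) and was higher with TTM at 103.9 ± 4.23 TPM (0.41, adjusted p = 6.39e-05).

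Catalase works in the peroxisome, so 16 genes of peroxisome biogenesis and import were set beside it. With CuO NPs 1 rose, 4 fell and 11 did not pass, at a median of -0.19. Both shares are below those over all genes, 11.8% and 30.1%, and 2 of the 4 lower calls, Pex5 and Pex11a, were lost with median-of-ratios scaling. Pex26 and Pex10, which serve matrix protein import, fell by 0.53 and 0.46 (limma adjusted p = 0.00077 and 0.000228), and Pex6, of the same import machinery, rose by 0.43 (adjusted p = 0.00464). With TTM beside CuO NPs 8 were higher and 1 lower than with CuO NPs alone, and 7 higher and 4 lower with median-of-ratios scaling. Pex10 went from 16.92 ± 0.526 to 33.10 ± 1.37 TPM in that step (0.93, adjusted p = 3.65e-06) and Pex6 from 6.683 ± 0.378 to 10.83 ± 0.952 TPM (0.62, adjusted p = 0.000393). Over all genes 34.6% were called higher and 18.5% lower in that step.

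Of 12 transcriptional regulators of these genes 4 rose and 3 fell with CuO NPs, beside 11.8% and 30.1% of all genes, at a median of 0.02. A call in the lower group, that of Keap1, which holds NRF2 in the cytosol, was kept by 12 of 22 alternatives and lost under the other 4 scalings. Maff and Mafk, small Maf proteins that pair with NRF2 at the antioxidant response element, rose from 11.70 ± 0.163 to 22.78 ± 0.412 TPM (0.90, limma adjusted p = 1.18e-05) and from 21.94 ± 2.02 to 38.76 ± 2.17 TPM (0.80, adjusted p = 6.16e-05). With TTM they were lower, at 16.22 ± 1.48 and 28.37 ± 2.15 TPM (-0.47 and -0.44, adjusted p = 0.000532 and 0.00166), and still above control. Nfkb1, a subunit of NF-kB, fell from 62.84 ± 1.44 to 45.96 ± 2.97 TPM (-0.44, adjusted p = 0.000209) and on to 35.77 ± 0.765 TPM with TTM (-0.35, adjusted p = 0.000629). Rela, another subunit of NF-kB named after its value was seen, did not pass in any comparison. Its log2 fold change was 0.02 with CuO NPs (limma adjusted p = 0.847) and -0.09 with TTM against CuO NPs (adjusted p = 0.218). With both agents against control it was -0.08 (adjusted p = 0.307). Median gene centring called Rela higher with CuO NPs. That centring and median-of-ratios scaling called it lower with TTM against CuO NPs. Nfe2l2, which encodes NRF2, is named after its value was seen. It had 88.6, 79.7 and 86.0 TPM in control, 61.1, 64.8 and 63.7 TPM with CuO NPs and 66.1, 60.9 and 60.3 TPM with CuO NPs + TTM. The mRNA fell by 0.42 with CuO NPs (adjusted p = 0.000353), in the comparison where Srxn1, Txnrd1 and Prdx1 rose. Protein level and nuclear location of NRF2 were not part of the data.

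Genes whose pattern over the 9 libraries was most like that of a member were sought among 8874 genes with a mean of at least 5 TPM, by the root mean square difference of log2(TPM + 1) centred on control. For Cat the closest were Lonrf3, Oser1 and Serf1, with differences of 0.0724, 0.0784 and 0.106. Oser1 had 102.9 ± 4.80, 226.6 ± 7.92 and 149.2 ± 4.61 TPM in the 3 groups. For Srxn1 they were Zbtb2, Osm and Vps37b, at 0.204, 0.243 and 0.286, larger than those for Cat. Members and genes with predicted-gene names were not among the candidates. For Sod1 they were Psmd4, Scamp3 and Mcm5, at 0.0519, 0.0534 and 0.0575, and for Sod2 Abt1, Qtrt1 and Yrdc, at 0.0403, 0.0571 and 0.0578. Smaller differences are easier to reach for a gene that varies little, as Sod1 and Sod2 do. Srxn1 differed more between groups than Cat, by up to 1.76 against 1.22 on the log2 scale, so their distances are not on equal terms. The measure describes likeness of levels in these libraries only.

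Genes with near-identical copies elsewhere could draw or lose reads. Copies of at least 90% identity over at least 300 bases were annotated for Txn1, Prdx1, Prdx2, Prdx6 and Sod1, and for the other 5 genes there were none. In any library the copies of a gene summed to at most 0.29 TPM, for Sod1, which was 0.0489% of its own level. Adding them to the 10 genes changed no call, and at such low levels could hardly have done so.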

How the data were processed

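Polyadenylated RNA of 9 MH-S libraries was made into stranded libraries and read from both ends, per the labels' protocols. The authors deposited TPM values per gene with 2 decimals, and fastp, HISAT2, RSEM, DESeq2 and the build GRCm39 are named, without versions or roles, per the submitters' processing notes. Use of strand in the counting is not given in the sources used here. TPM keeps no read number, so depth is unknown, no counting interval is given and no count test was run. TPM also sums to the same total in each library, so a large rise in abundant genes lowers the others.

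Symbols came from a GRCm38 annotation by Ensembl identifier, for 52073 of 56980 identifiers. Genes with at least 1 TPM in at least 3 libraries (12904) were fitted together as log2(TPM + 1), with 1 mean per group over all 9 libraries, by limma 3.58.1 in R 4.3.3 (eBayes with an intensity trend, two-sided, Benjamini-Hochberg over all genes of a comparison, called below 0.05). Fold changes on that scale understate those of low genes, and folds are ratios of mean TPM. The fit was also run on simulated data in which few genes differed, equally in both directions. That setting is unlike these data and does not bear on the choice of scaling. Ratios between members were compared by exact permutation with scipy 1.17.1. Copies were sought with BLAST 2.17.0, and matplotlib 3.10.9, pandas 2.3.3 and numpy 2.4.6 under Python 3.11.15 made the plots and tables.

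The 10 members and the gene lists were chosen with earlier results of these data known. By the naming rule all members are named, and of each list up to 3 called genes with the largest change with CuO NPs, plus the 3 genes closest in pattern to Srxn1, Sod1, Sod2 and Cat. A result of the NADPH oxidase list is not reported here. Alternatives were pseudocounts of 0.1 and 5, no filter or 5 TPM, 4 other scalings, fits of 2 groups only, no trend and a replicate block. Further ones were an added pseudogene row, added copies and leaving out each library. The pseudogene row, Prdx6-ps2, was at 0 TPM in every library, so adding it could change no value.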

Additional observations from a re-analysis of the deposited data

How the results depend on the processing

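Over 22 alternatives, 607 of 660 log2 fold changes of the 10 genes kept their direction and their side of the threshold, 38 lost the call, 5 gained one and 10 turned. The added pseudogene row and the added copies, both at or near 0 TPM, are among the 22 and could hardly have changed a call. All calls of Srxn1, Sod1 and Cat were kept, as were those of Txn1, Txnrd1 and Prdx1 with CuO NPs against control and with TTM against CuO NPs. The values that turned were small. Sod2 with CuO NPs against control became 0.0047 with median-of-ratios scaling and 0.045 with median gene centring. With TTM against CuO NPs the same scalings gave -0.0244 and -0.083 for Prdx2 and -0.0694 and -0.1269 for Prdx5, and leaving out a library gave -0.1023 to 0.0323 for Prdx6, turned without CuO NPs + TTM replicate 1. For CuO NPs + TTM against control, quantile normalization gave 0.069 for Txnrd1 and 0.1345 for Txn1, and leaving out a library gave -0.0844 to 0.0122 for Txn1, turned without control replicate 1, and -0.183 to 0.0036 for the log2 ratio of Prdx5 to Prdx1, turned without CuO NPs + TTM replicate 2. Of 1320 values of other named genes, Rela not included, 1231 kept direction and side, 71 lost the call, 14 gained one and 4 turned. With median gene centring Txndc17 turned to 0.0129, Glrx with TTM to -0.0044 and Txn2 with TTM to -0.0044. Prdx3, at -0.0084 to 0.0388 when a library was left out, turned without CuO NPs replicate 2. Median-of-ratios scaling and median gene centring shift all genes of a library together, and quantile normalization does not. The cause of the changes was not tested.

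The number of members called lower with CuO NPs was 2. It was 1 with no filter, without mitochondrially encoded genes and with no trend, 0 with median-of-ratios scaling, median gene centring and quantile normalization, and 0 to 2 when a library was left out, 0 without control replicate 2 and 1 without any other control or CuO NPs library. The number lower for CuO NPs + TTM against control was 5. It was 3 with no filter, no trend and the same 3 scalings, and 3 to 5 when a library was left out, 3 without control replicates 1 or 2. Over all genes, calls with CuO NPs were 2571 higher and 2561 lower with median-of-ratios scaling, 3134 and 2071 with median gene centring, and 2619 and 2535 with quantile normalization, against 1518 and 3890. With TTM against CuO NPs, median gene centring gave 2741 and 4222 against 4469 and 2384.

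Libraries of the same replicate number did not deviate together, with correlations of -0.127 to 0.01, beside -0.037 to 0.099 for other pairs, so the numbers were not taken to pair the samples. With the replicate block the members called were 6 higher and 2 lower, 0 and 7, and 3 and 4 in the 3 comparisons, and Prdx1 lost its call against control with TTM (adjusted p = 0.0694). Adding near-identical copies was chosen after seeing the data and changed no call.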
